A study of Mus musculus with 24 samples.

Results

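Inguinal white adipose tissue (IWAT) of mice fed a methionine-restricted diet made with oxidized casein was compared with that of mice fed a methionine-sufficient diet of free amino acids. All 6 libraries of the oxidized casein diet and all 6 of the elemental control diet entered the comparison, 12 of the 24 libraries in the series. The oxidized casein MR diet held 0.17% methionine. Its casein had lost methionine through oxidation, and methionine was then added back up to the level of the elemental restricted diet. The elemental control diet supplied elemental amino acids in place of protein and held 0.86% methionine. The other 12 libraries came from an elemental MR diet (0.17%) and a casein control diet (0.86%), 6 each. Every library came from a male C57BL6/J mouse with its own mouse number, aged 4 months, that had begun its diet at 5 weeks of age, eaten it for 12 weeks and fasted for 4 h. The study kept 8 mice per diet, and 6 of each were sequenced here.

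The 2 diets compared differ in methionine level and in protein source at once, so within these 12 libraries the contributions of the 2 cannot be told apart. The other 2 diets complete a square of methionine level by protein source. In that square the log2 difference between oxidized casein MR and elemental control is the sum of 2 parts: the methionine effect averaged over both protein sources, and the protein source effect (casein-based minus elemental) averaged over both methionine levels. Values in all 4 diets are therefore given beside the comparison.

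Inguinal fat is a subcutaneous white depot that can acquire thermogenic adipocytes, which burn fuel through uncoupling protein 1. White adipocytes store triglyceride and secrete hormones such as leptin, adiponectin and the serine protease adipsin. Restriction of dietary methionine is known to lower fat mass and to raise energy expenditure in rodents, and in inguinal fat it is known to induce thermogenic genes. Casein oxidation converts methionine to its sulfoxide and sulfone, and methionine sulfoxide reductases return the sulfoxide to methionine.

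The libraries held 7468336 to 16201962 reads assigned to genes for oxidized casein MR and 11937056 to 19868913 for elemental control. The adipocyte identity of the tissue showed in its markers: Adipoq (adiponectin) reached 2046 to 4475 CPM (counts scaled by library total) in elemental control and 2100 to 4835 CPM in oxidized casein MR. Inguinal fat encloses a lymph node, and B cell transcripts separated the libraries into those with and without it. The node's transcripts were present in 2 of 6 oxidized casein MR libraries and 4 of 6 from elemental control, and in 5 of 6 and 4 of 6 from elemental MR and casein control. Of the B cell markers measured, 0 of 12 lay above 0 in log2 difference, with a median of -0.64. Skeletal muscle transcripts were high in elemental control 2, whose mean marker level of 9.25 log2 CPM stood above a second highest of 4.91 in that diet, and the muscle list's median log2 difference was -2.60 with all 6 libraries and 1.84 without elemental control 2 and 6. Liver transcripts were high in elemental control 6, where Alb (albumin) reached 5610 CPM against 135.4 to 799.7 CPM in the other 5, and the hepatocyte list's median was -2.02 with all libraries and -0.59 without elemental control 2 and 6. In bulk tissue, fewer cells of a type and less RNA per cell cannot be told apart.

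No gene passed the test between oxidized casein MR and elemental control. With edgeR's quasi-likelihood test and Benjamini-Hochberg adjustment, 0 of 15176 genes (0%) had an adjusted p under 0.05, and the smallest adjusted p was 0.0606. At an unadjusted p under 0.05, 1069 genes (7.04%) were counted, 454 of them higher (2.99%) and 615 lower (4.05%) in oxidized casein MR. The median log2 difference over all genes was -0.05, its median standard error was 0.22, and 41.6% of genes lay above 0. Without elemental control 1 the edgeR count was 10, 8 higher and 2 lower. Other tools drew the line elsewhere. DESeq2's Wald test called 47 genes, 38 higher and 9 lower, and limma voom called 2, both higher. Of DESeq2's 9 lower genes, 1 belonged to the hepatocyte list, and liver transcripts were high in elemental control 6. With lymph node presence as a term in the edgeR model, 47 genes were called, 9 higher and 38 lower, and 9 genes were in both sets of 47: Cfd, Ypel3, Slc25a34, Adcy3, Ivns1abp, Gbp7, Hebp2, Nup93 and Igfbp4.

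Libraries that did not overlap between the 2 diets were rare. All 6 oxidized casein MR libraries lay above all 6 controls for 38 genes (0.25%) and below them for 36 genes (0.237%).

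Cfd and Ypel3 came nearest to the threshold, followed by Slc25a34, and the 3 were picked for description after their values were seen. Cfd, on chromosome 10 (79890853 to 79892655, plus strand, GRCm38), encodes adipsin, the complement factor D that adipocytes secrete. Ypel3, on chromosome 7 (126776955 to 126780514, plus strand), encodes a yippee-like protein. Slc25a34, on chromosome 4 (141618824 to 141623821, minus strand), encodes a carrier of the mitochondrial inner membrane family. Their promoters are shown because they belong to the genes with the smallest p. Each stretch is the RefSeq sequence (GRCm38.p6) from 250 to 11 bases before the RefSeq start (the gene coordinates above are GENCODE's, whose starts for Ypel3 and Slc25a34 differ by a few bases), read on the gene's strand, at chr10:79890603-79890842 for Cfd, chr7:126776713-126776952 for Ypel3 and chr4:141623845-141624084 for Slc25a34. Capitals mark matches on either strand to 3 motifs: AGGTCA, a core site of nuclear receptors, TGACG, a core site of CREB and ATF factors, and TGATGNAA, a response element of C/EBP and ATF factors.
Cfd: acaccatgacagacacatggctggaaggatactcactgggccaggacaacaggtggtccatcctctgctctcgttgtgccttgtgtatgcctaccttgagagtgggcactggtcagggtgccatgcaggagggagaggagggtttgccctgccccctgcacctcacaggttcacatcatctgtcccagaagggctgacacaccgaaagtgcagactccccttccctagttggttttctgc
Ypel3: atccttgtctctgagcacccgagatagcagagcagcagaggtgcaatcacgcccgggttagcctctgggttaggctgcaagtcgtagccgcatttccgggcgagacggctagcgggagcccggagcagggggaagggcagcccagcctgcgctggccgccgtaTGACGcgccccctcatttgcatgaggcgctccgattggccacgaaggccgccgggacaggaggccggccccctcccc
Slc25a34: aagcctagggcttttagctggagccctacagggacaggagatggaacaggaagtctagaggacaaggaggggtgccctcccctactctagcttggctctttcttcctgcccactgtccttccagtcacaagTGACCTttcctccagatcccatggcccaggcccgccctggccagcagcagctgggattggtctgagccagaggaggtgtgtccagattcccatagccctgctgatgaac
The Ypel3 stretch holds 1 CREB and ATF core site and the Slc25a34 stretch 1 nuclear receptor core site, here on the reverse strand, while the Cfd stretch holds none of the 3 motifs. Among 13995 promoter stretches of the same length from tested genes, 10.9% hold AGGTCA, 23.6% hold TGACG and 2.04% hold TGATGNAA. The matches are a description of the letters alone.

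Cfd was the most abundant of the 3. In elemental control its levels were 5826, 4865, 3895, 6770, 6725 and 4530 CPM, and in oxidized casein MR they were 11810, 20050, 13140, 17210, 9765 and 23430 CPM. Every oxidized casein MR library lay above every control library. The means were 15900 ± 5250 and 5435 ± 1190 CPM (SD, n = 6 each), a log2 difference of 1.55 (SE 0.26, adjusted p = 0.0606, edgeR) or 2.93-fold. The 2 diets between them sat in the middle, with means of 8512 CPM in elemental MR and 8514 CPM in casein control. Both parts of the difference were 0.77 on the log2 scale and both passed the test (adjusted p = 0.00833 for methionine, 0.0299 for protein source). In the edgeR fit of all 24 libraries, Cfd was the only gene of 15176 called in both parts in the same direction. The number of such genes was 5 with DESeq2 and 3 without oxidized casein MR 1. It was 0 in each fit that left out 1 of these: elemental control 3 or 6, elemental MR 1 or 4, casein control 4, or oxidized casein MR 2, 4 or 6. In the comparison itself, Cfd was called in 16 of 36 alternative settings, and leaving out 1 library at a time gave log2 differences of 1.42 to 1.66.

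Ypel3 differed less in size but with a narrow spread. Its levels in elemental control were 250.3, 209.9, 213.4, 229.0, 204.7 and 216.5 CPM, and in oxidized casein MR 280.5, 329.1, 331.0, 317.2, 328.7 and 362.2 CPM, again with no overlap. The log2 difference was 0.56 (SE 0.10, adjusted p = 0.0606, edgeR), and 13 of the 36 alternatives called it. Of its parts, the methionine effect of 0.36 passed the test (adjusted p = 0.00202) and the protein source effect of 0.20 did not (adjusted p = 0.142).

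Slc25a34 showed a different order of diets. Elemental control libraries read 9.91, 4.62, 6.19, 4.15, 5.08 and 4.72 CPM and oxidized casein MR libraries 32.11, 20.02, 24.12, 28.04, 23.32 and 6.504 CPM. In 5 of 6 oxidized casein MR libraries the level was above all controls, and the sixth, oxidized casein MR 6, fell within their range. The log2 difference was 1.96 (SE 0.36, adjusted p = 0.0798, edgeR), and without oxidized casein MR 6 it was 2.17 with an adjusted p of 0.00919. Slc25a34 was called in 6 of the 36 alternatives. Leaving out 1 library at a time gave log2 differences from 1.84, without oxidized casein MR 1, to 2.19, without elemental control 1. Mean levels were 44.7 CPM in elemental MR and 2.87 CPM in casein control, so the methionine part was 2.97 (adjusted p = 1.49e-06) and the protein source part -1.01 (adjusted p = 0.0385).

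**Figure D1:**
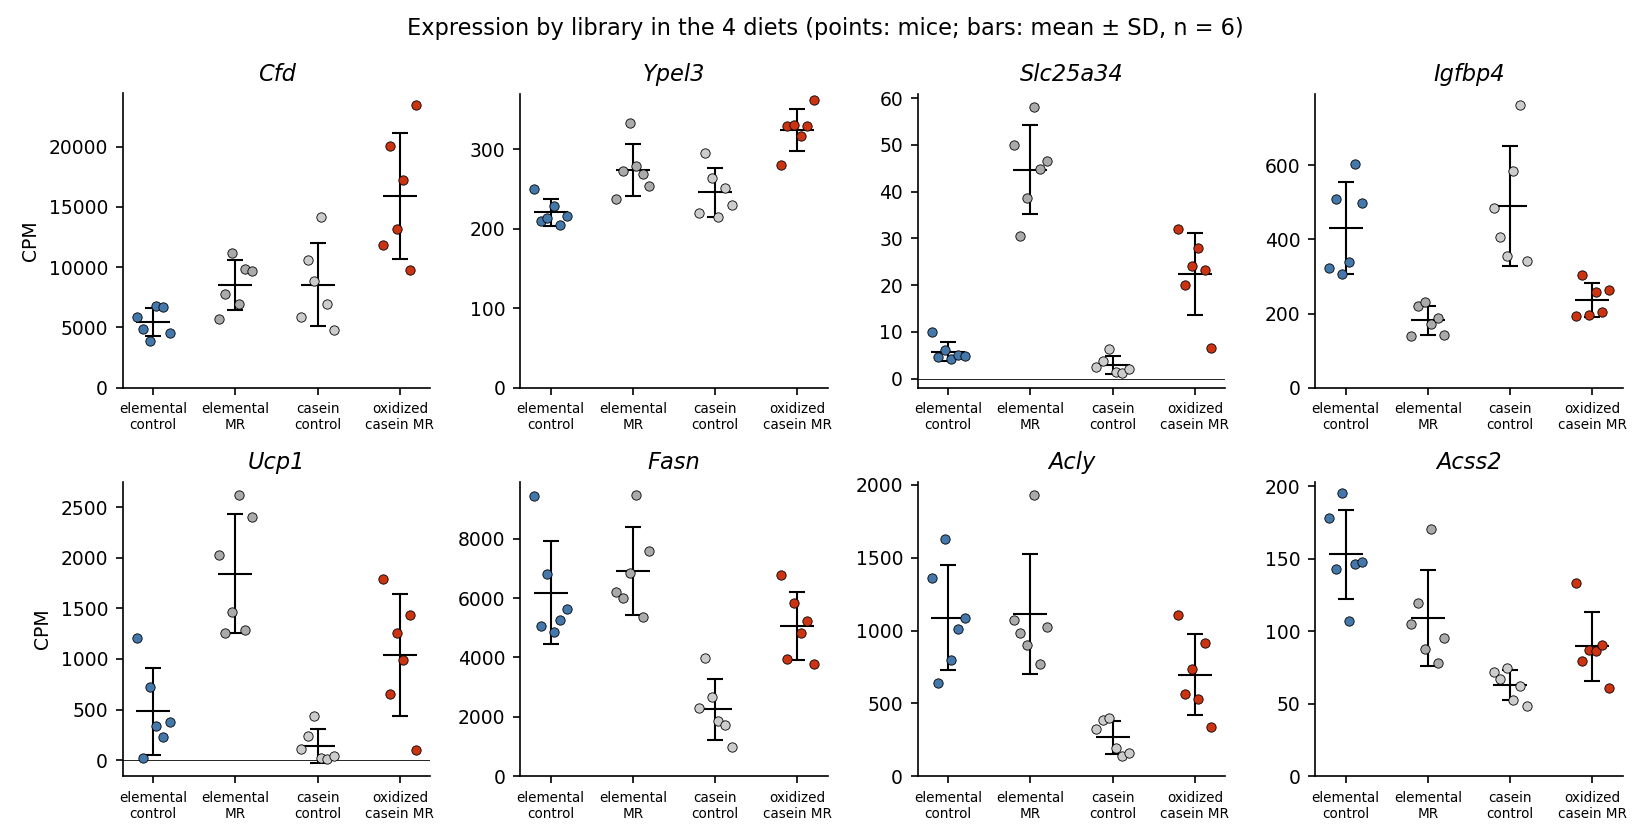
CPM of 8 genes in each library of the 4 diets, with the mean and SD of 6 mice per diet. Cfd and Ypel3 libraries of oxidized casein MR lie above all elemental control libraries and Igfbp4 libraries below them, while for Slc25a34 1 oxidized casein MR library lies among the controls.

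Among other genes near the threshold, Snai2, which encodes a transcription factor of mesenchymal cells, averaged 3.69 ± 0.62 CPM in oxidized casein MR and 6.32 ± 1.11 CPM in elemental control (log2 difference -0.78, adjusted p = 0.0986). Nup93, a nuclear pore subunit, averaged 11.7 ± 1.90 against 18.2 ± 1.83 CPM, with no overlap (-0.65, adjusted p = 0.0986). Gbp7, an interferon-inducible GTPase, averaged 129 ± 16.8 against 81.0 ± 14.4 CPM, also with no overlap (0.67, adjusted p = 0.0986). Adcy3, an adenylyl cyclase that makes cyclic AMP, averaged 27.2 ± 2.45 against 15.1 ± 4.22 CPM, and its lowest oxidized casein MR library at 24.1 CPM was above the highest control at 22.1 CPM (0.85, adjusted p = 0.110). Akap1, an anchor of protein kinase A at the mitochondrial surface, averaged 69.7 ± 7.22 against 45.0 ± 4.44 CPM without overlap (0.63, adjusted p = 0.216). Gpat4, an acyltransferase of glycerolipid synthesis, averaged 206 ± 25.5 against 144 ± 20.7 CPM without overlap (0.52, adjusted p = 0.216). None of these passed the edgeR test.

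The same test made many calls between the other 2 diets, which share no library with the comparison. Between elemental MR and casein control, also 6 libraries each and with the same median standard error of 0.22, 1643 genes were called, 1152 higher and 491 lower in elemental MR. Where the difference between oxidized casein MR and elemental control is the sum of the methionine and protein source parts, that between elemental MR and casein control is the methionine part minus the protein source part.

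**Figure D2:**
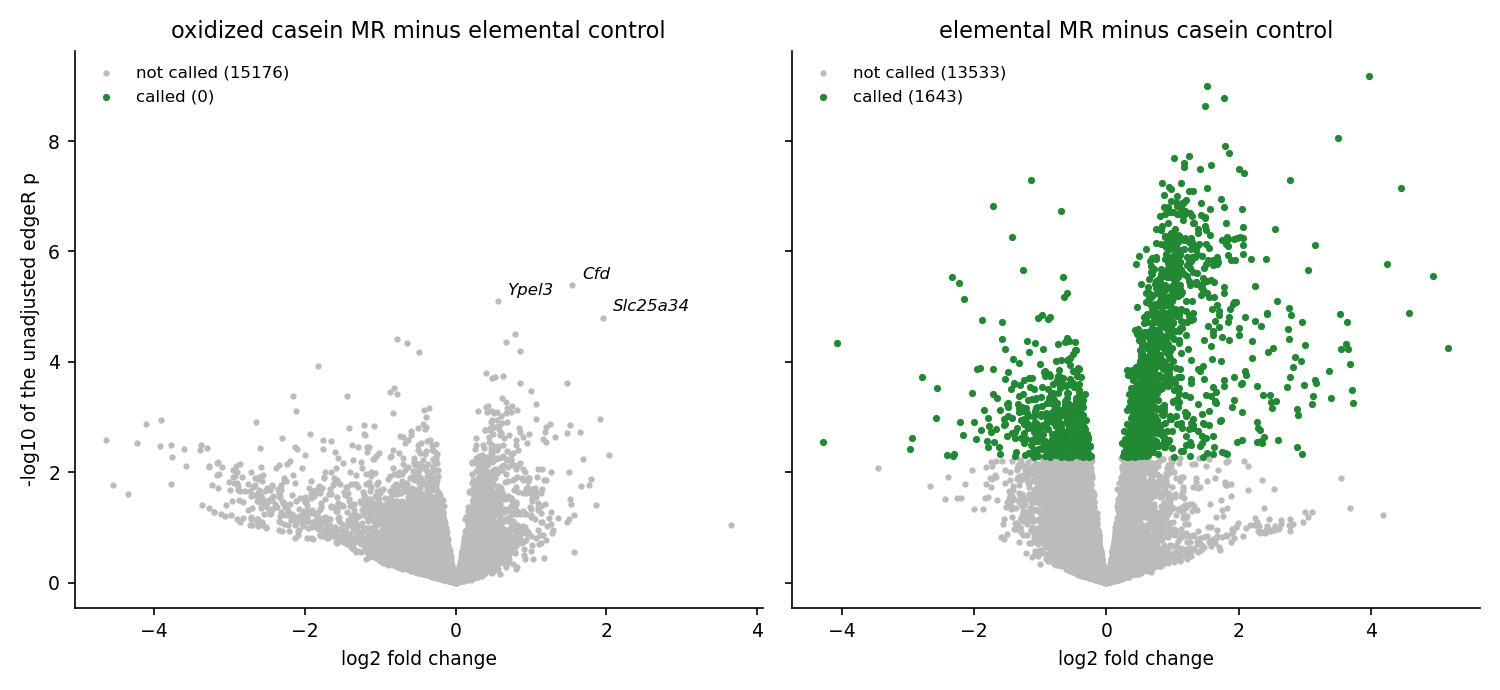
Log2 fold change against the unadjusted edgeR p (on a -log10 scale) for 15176 genes in 2 comparisons of 6 against 6 libraries. On the left, oxidized casein MR against elemental control has 0 called genes, and on the right, elemental MR against casein control has 1643.

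The 2 parts, each estimated from all 24 libraries, did hold called genes. The methionine part had 794 genes higher (5.23%) and 267 lower (1.76%) under restriction, and the protein source part had 40 higher (0.264%) and 253 lower (1.67%) with casein. The protein source count moved with single libraries, from 67 without oxidized casein MR 2 to 517 without oxidized casein MR 1, and without elemental control 2 and elemental MR 2 it was 656, 293 higher and 363 lower. Each part has a smaller standard error than the comparison, with a median of 0.15. For the 794 genes higher with restriction the median was 0.54 in the methionine part, -0.32 in the protein source part and 0.20 in their sum, and 725 of the 794 lay above 0 in the sum. For the 253 genes lower with casein, the median of the sum was 0.00. The parts and the comparison share libraries, so these medians are given side by side as a description.

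Of 197 genes called in both parts, 196 had opposite directions (48 without oxidized casein MR 2 and 275 without oxidized casein MR 1). Among them 188 were higher with methionine restriction and lower with casein, with median log2 effects of 0.64 and -0.57 and a median sum of 0.07. Casein control had the lowest mean log2 CPM and elemental MR the highest for all 188. Of the 188 genes, 7 had an unadjusted p under 0.05 (edgeR) in the comparison of oxidized casein MR with elemental control. Over all genes it was 1069 of 15176 (7.04%), a larger share. The choice of the 188 by opposite parts draws the sum towards 0, so their count is only a description. The arithmetic of the square sets part of this pattern: a gene that moved in casein control alone, or in elemental MR alone, appears in both averages with opposite signs. Acly, the ATP citrate lyase that supplies acetyl-CoA for lipid synthesis, was lowest in casein control, with means of 1088 ± 362 CPM in elemental control, 1114 ± 414 in elemental MR, 265 ± 116 in casein control and 697 ± 280 in oxidized casein MR (SD, n = 6). Its log2 difference in the comparison, -0.64, was the lowest of the 188 (unadjusted p = 0.0477, adjusted p = 0.706, edgeR). Its casein control libraries, at 139 to 397 CPM, lay below the other diets except for 1 oxidized casein MR library at 337 CPM. Kcnk3, a potassium channel of thermogenic adipocytes, averaged 199 ± 46.2, 396 ± 93.4, 116 ± 27.8 and 282 ± 55.3 CPM in the same order of diets.

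**Figure D3:**
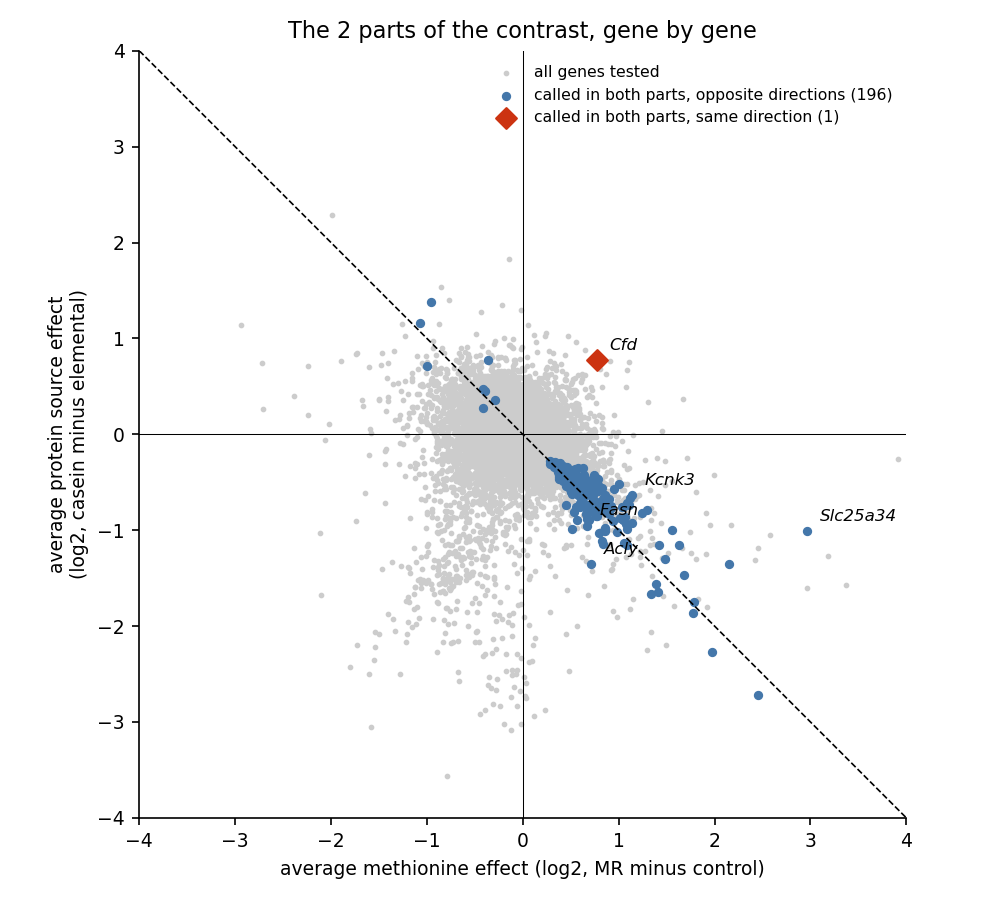
The average methionine effect (x axis) and the average protein source effect (y axis) of 15176 genes, both on the log2 scale. On the dashed line the parts sum to 0. Most of the 196 genes called in both parts in opposite directions lie near it, with Slc25a34 (2.97 and -1.01) among the exceptions. In this fit of all 24 libraries, Cfd (0.77 and 0.77) is the only gene called in both parts with the same direction.

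Thermogenic genes lay on the higher side in oxidized casein MR without passing the test. Of 22 measured, 0 rose and 0 fell, 19 lay above 0 and the median log2 difference was 0.45, against -0.05 over all genes. Ucp1, the uncoupling protein of thermogenic adipocytes, read 1211, 15.6, 726, 333, 224 and 372 CPM in elemental control and 1791, 649, 1261, 993, 1431 and 99.4 CPM in oxidized casein MR. The groups overlapped, with the lowest values in elemental control 2 and oxidized casein MR 6. The log2 difference was 1.11 (SE 0.83, unadjusted 95% interval -0.63 to 2.85). Elemental MR averaged 1843 ± 590 CPM and casein control 140 ± 166 CPM. The methionine part for Ucp1, 2.42, passed the test (adjusted p = 0.0169), and the protein source part of -1.31 did not (adjusted p = 0.296). Elovl3, which elongates fatty acids in thermogenic fat, averaged 103 ± 69.3 against 40.3 ± 28.5 CPM (1.36, adjusted p = 0.732). Cidea, a lipid droplet protein, averaged 559 ± 187 against 494 ± 368 CPM (0.18, adjusted p = 0.963), and its log2 difference was -0.03 without elemental control 2. Gk, glycerol kinase, averaged 44.7 ± 19.1 against 19.5 ± 7.82 CPM (1.20, adjusted p = 0.407, edgeR), and Acot2 176 ± 27.9 against 104 ± 58.6 CPM (0.76, adjusted p = 0.439, edgeR). Dhrs9, a retinol dehydrogenase, averaged 4.26 ± 2.45 against 1.13 ± 0.72 CPM (1.91, adjusted p = 0.361, edgeR). Dhrs9 and Lgr6 are not members of the thermogenic list. Oxidized casein MR 6 was the lowest of its diet for Ucp1, Elovl3, Cidea, Dhrs9, Gk and Lgr6, and it was the highest for Cfd and Adipoq. Elemental control 2, with the muscle transcripts, was the lowest control for Ucp1, Elovl3, Cidea, Dhrs9, Gk and Lgr6, and without elemental control 2 and 6 the list's median was 0.30. With lymph node presence as a term it was 0.71, and within libraries with and without lymph node transcripts it was 0.279 and 1.163. The libraries without them were 4 from oxidized casein MR and only 2 from elemental control, and muscle-rich elemental control 2 was among them. The part of these libraries in the result was not tested further.

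Genes of mitochondrial fuel use lay slightly above the controls and did not pass the test. Of 47 nuclear genes of oxidative phosphorylation, 46 lay above 0, with a median of 0.19, and 0 rose. The methionine part was higher for 44 of them and the protein source part lower for 13, with medians of 0.60 and -0.43. Over all 15176 genes, 5.23% were called higher in the methionine part and 1.67% lower in the protein source part. The comparison's median was 0.119 without oxidized casein MR 1 and 0.353 without elemental control 1, and it was 0.027 within libraries with lymph node transcripts and 0.56 within those without. The controls without these transcripts were only elemental control 2, the muscle-rich library, and elemental control 5, here and for the lists below. Fatty acid oxidation genes had a median of 0.31 with 19 of 22 above 0. Crat, carnitine acetyltransferase, averaged 143 ± 18.8 against 101 ± 16.6 CPM (0.51, adjusted p = 0.318), and Eci1, an isomerase for unsaturated fatty acids, 256 ± 27.6 against 172 ± 41.6 CPM (0.57, adjusted p = 0.361). DESeq2 called both. Hadha, a subunit of the trifunctional protein of the same pathway, averaged 504 ± 155 against 438 ± 187 CPM, between casein control at 209 and elemental MR at 793 CPM. Genes of the TCA cycle had a median of 0.15 (19 of 22 above 0), where Idh3a, an isocitrate dehydrogenase subunit, averaged 403 ± 78.4 against 310 ± 87.2 CPM. The TCA median was 0.057 without oxidized casein MR 1, 0.302 without elemental control 1, -0.049 within libraries with lymph node transcripts and 0.594 within those without. Transcripts of the mitochondrial genome took 27.9% ± 4.36 of reads in oxidized casein MR and 26.2% ± 3.96 in elemental control, a difference smaller than the spread between mice, against 32.9% ± 2.72 in elemental MR and 18.9% ± 3.62 in casein control. Their median log2 difference was 0.15, 0.016 without oxidized casein MR 1 and 0.262 without elemental control 1, and within libraries with and without lymph node transcripts it was -0.026 and 0.536. Branched-chain amino acid catabolism had a median of 0.20 with 19 of 20 above 0, and of 0.09 once lymph node presence was modelled. Its Dbt, a subunit of the branched-chain keto acid dehydrogenase, averaged 84.5 ± 12.3 against 57.1 ± 8.33 CPM (0.57, adjusted p = 0.361).

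Lipid synthesis genes lay on both sides of the controls. Of 24 genes of fatty acid and triglyceride synthesis, 11 lay above 0, the median was -0.10 and 0 passed the test. Without elemental control 1 the median was 0.04, and without oxidized casein MR 1 it was -0.202. Fasn, fatty acid synthase, read 9426, 5052, 6824, 4863, 5268 and 5616 CPM in elemental control and 6782, 3930, 5828, 4809, 5239 and 3774 CPM in oxidized casein MR. The groups overlapped, with a log2 difference of -0.29 (unadjusted 95% interval -0.81 to 0.24, adjusted p = 0.900). Casein control averaged 2247 ± 1030 CPM and elemental MR 6914 ± 1470 CPM, so Fasn was called in both parts, 0.67 for methionine (adjusted p = 0.0210) and -0.95 for protein source (adjusted p = 0.0108). Acaca, acetyl-CoA carboxylase, had a difference of -0.14 (interval -0.64 to 0.36) and Scd1, stearoyl-CoA desaturase, 0.08 (interval -0.32 to 0.49). Acss2, which makes acetyl-CoA from acetate, averaged 89.5 ± 24 against 153 ± 30.8 CPM, with only oxidized casein MR 1 above the lowest control (-0.77, adjusted p = 0.287). Dgat1, which completes triglyceride synthesis, averaged 325 ± 75.7 against 231 ± 24 CPM, with 4 of 6 oxidized casein MR libraries above all controls (0.49, adjusted p = 0.420).

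All 21 cholesterol synthesis genes measured lay below 0, with a median of -0.29 and a range of -0.57 to -0.11, and 0 fell by the test. Fdft1, squalene synthase, read 14.1 to 18.9 CPM in elemental control and 8.19 to 13.7 CPM in oxidized casein MR, with no overlap (-0.50, adjusted p = 0.420). Its level was also low in elemental MR at 12.2 CPM and casein control at 11.7 CPM, so elemental control had the highest mean of the 4 diets. Sqle, squalene epoxidase, averaged 6.998 ± 1.66 against 10.3 ± 2.92 CPM (-0.55, adjusted p = 0.686). Insig1, which holds back sterol synthesis when sterols are abundant, averaged 113 ± 32.2 against 138 ± 51.3 CPM (-0.29, adjusted p = 0.863).

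**Figure D4:**
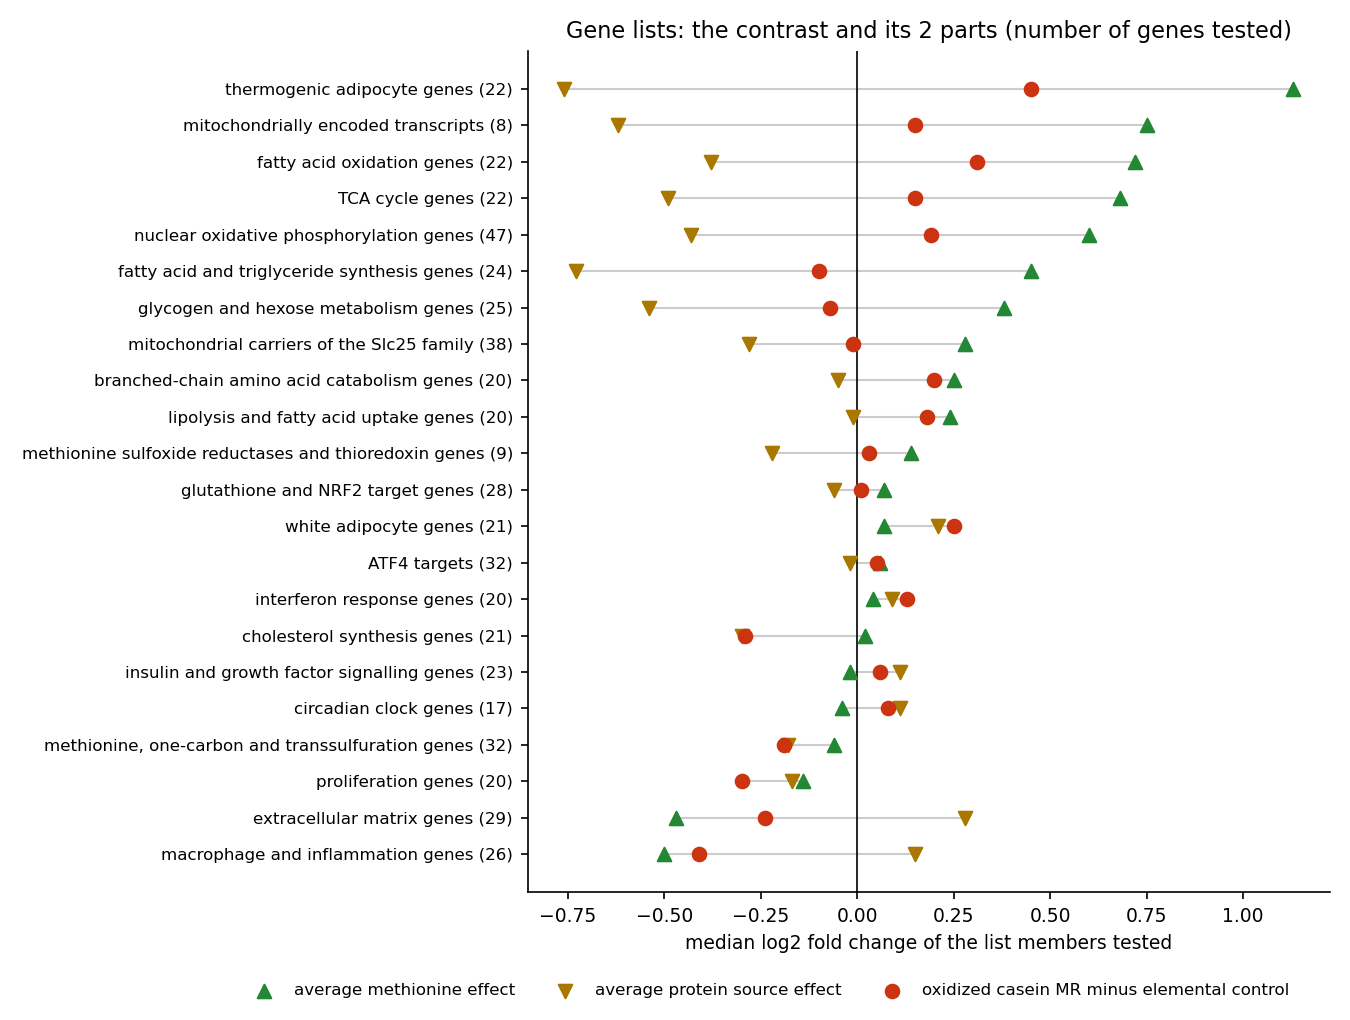
Median log2 fold change of each gene list (number of genes tested in brackets) in the comparison of oxidized casein MR with elemental control and in its 2 parts. For the thermogenic, mitochondrial and fatty acid synthesis lists the methionine medians lie above 0 and the protein source medians below it, with the comparison between them.

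White adipocyte genes had a median of 0.25, with 15 of 21 above 0 and 0 called, and the median was 0.01 once lymph node presence was modelled. Pck1, the phosphoenolpyruvate carboxykinase of glycerol synthesis, averaged 3550 ± 872 against 2134 ± 240 CPM, and only 1 oxidized casein MR library, at 2415 CPM, was below the highest control at 2529 CPM (0.73, adjusted p = 0.318). Lep, leptin, averaged 192 ± 90.6 against 358 ± 248 CPM with overlap (-0.90, adjusted p = 0.852), and its log2 difference was -0.48 without elemental control 5, the library with the highest leptin. Adipoq differed by 0.26 (interval -0.32 to 0.84).

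Of the hormone and growth factor genes, Igfbp4, a binding protein of insulin-like growth factors, read 323.6, 510.6, 305.8, 339.0, 604.2 and 498.6 CPM in elemental control and 192.2, 303.8, 195.9, 257.4, 204.9 and 262.6 CPM in oxidized casein MR. The groups did not overlap, though the nearest libraries lay at 303.8 and 305.8 CPM. The log2 difference was -0.87 (SE 0.21, adjusted p = 0.286, edgeR), its methionine part was -1.15 (adjusted p = 6.29e-05), and DESeq2 and the model with the lymph node term called it. Igfbp7, a related secreted protein, averaged 554 ± 108 against 397 ± 30.3 CPM without overlap (0.48, adjusted p = 0.484), and there the protein source part, 0.48, passed the test (adjusted p = 0.0334) while the methionine part was 0.01. Prlr, the prolactin receptor, averaged 27.7 ± 13.9 against 12.5 ± 8.50 CPM (1.15, adjusted p = 0.508).

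Amino acid and sulfur metabolism, the pathways nearest to the dietary change, showed small median differences. Of 32 genes of methionine, one-carbon and transsulfuration metabolism, 7 lay above 0, the median was -0.19 and 0 passed. Mthfd1, a folate enzyme, read 13.8 to 20.3 CPM in elemental control and 9.99 to 12.7 CPM in oxidized casein MR, with no overlap (-0.40, adjusted p = 0.444). Cth, which cleaves cystathionine, averaged 2.76 ± 0.86 against 6.47 ± 5.6 CPM (-1.24, adjusted p = 0.503), and elemental control 6, the library with liver transcripts, held its highest value of 17.2 CPM. The list's median was -0.09 without elemental control 6 and -0.05 without elemental control 2 and 6. Mat2a, which makes S-adenosylmethionine, averaged 252 ± 66.3 against 208 ± 33.3 CPM (0.28, interval -0.03 to 0.58). Of 32 targets of the amino acid response factor ATF4, 18 lay above 0, with a median of 0.05. Asns, asparagine synthetase, differed by 0.14 (interval -0.26 to 0.53) and Psat1, of serine synthesis, by -0.07 (interval -0.72 to 0.58). Atf4 itself read 109 to 136 CPM in elemental control and 137.0 to 183 CPM in oxidized casein MR, touching but not overlapping (0.39, adjusted p = 0.367). The 9 methionine sulfoxide reductase and thioredoxin genes had a median of 0.03. Msra, which reduces free and protein-bound methionine sulfoxide, averaged 43.1 ± 5.92 against 42.2 ± 6.71 CPM (0.03, interval -0.25 to 0.30). Among glutathione and NRF2 target genes (median 0.01), Gpx3, the secreted glutathione peroxidase, averaged 872 ± 208 against 498 ± 135 CPM (0.81, adjusted p = 0.414). Gsta3, a glutathione transferase of the same list, went the other way, at 27.5 ± 9.33 against 62.2 ± 39.4 CPM (-1.18, adjusted p = 0.418, edgeR). Its highest value, 137 CPM, was in elemental control 6. The methionine part for Gsta3, -1.13, passed the test (adjusted p = 0.00706, edgeR).

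Macrophage and inflammation genes were below 0 for all but 1 of 26 members, with a median of -0.41 (-0.236 without elemental control 5), and 0 passed the test. Cd68, a lysosomal protein of macrophages, averaged 17.8 ± 6.54 against 27.1 ± 6.77 CPM (-0.60, adjusted p = 0.663), and C1qa, a complement subunit of macrophages, 68.8 ± 12.1 against 90.1 ± 20.3 CPM (-0.39, adjusted p = 0.692). Interferon response genes had a median of 0.13, with Ifi27l2a at 1356 ± 475 against 777 ± 152 CPM (0.80, adjusted p = 0.398). Its protein source part, 2-fold higher with casein, passed the test (adjusted p = 0.00653). For genes of the extracellular matrix, 9 of 29 lay above 0 and the median was -0.24, or -0.031 without elemental control 5. With lymph node presence as a term that median was -0.49 and 4 of the 29 fell, among them Col6a2 (-0.92, adjusted p = 0.0176) and Loxl2 (-0.69, adjusted p = 0.0332), against -0.63 (adjusted p = 0.732) and -0.47 (adjusted p = 0.787) without the term. Among all 15176 genes, 38 fell with the term. Proliferation genes lay above 0 for 1 of 20 members (median -0.30). Lymph node presence differs between 4 of 6 elemental control and 2 of 6 oxidized casein MR libraries. With the term, the median of the proliferation list was -0.09, against -0.30 without it. The macrophage median changed less, from -0.41 to -0.355, and the interferon median was 0.147 with the term and 0.13 without. Over all alternatives the macrophage median ranged from -0.71 to -0.027 and the proliferation median from -0.733 to 0.397.

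The remaining lists had 0 genes called in each. Lipolysis and fatty acid uptake genes had 17 of 20 above 0 and a median of 0.18, where Acsl1, which activates long-chain fatty acids, averaged 1466 ± 241 against 1171 ± 59.9 CPM (0.32, adjusted p = 0.577). That list's median was 0.035 once lymph node presence was modelled. Mitochondrial carriers of the Slc25 family, Slc25a34 included, had 18 of 38 above 0 and a median of -0.01. Glycogen and hexose genes had 12 of 25 above 0 and a median of -0.07. Ppp1r3c, a glycogen-targeting phosphatase subunit, averaged 39.5 ± 8.85 against 27.6 ± 9.40 CPM (0.52, adjusted p = 0.688, edgeR). Ugp2 of that list went the other way, at 79.5 ± 10.3 against 97.5 ± 17.3 CPM (-0.30, adjusted p = 0.684, edgeR). The protein source part for Ugp2, -0.55, passed the test (adjusted p = 0.00774, edgeR). Insulin and growth factor signalling had 14 of 23 above 0 (median 0.06), and circadian clock genes 10 of 17 (median 0.08). Of the clock genes, Per1 averaged 17.1 ± 8.58 against 9.57 ± 3.97 CPM (0.83, adjusted p = 0.496, edgeR). Nfil3 went the other way, at 4.21 ± 1.41 against 5.68 ± 1.83 CPM (-0.43, adjusted p = 0.771, edgeR).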

How the data were processed

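RNA from IWAT of 24 mice, 6 on each of 4 diets, was sequenced with the QuantSeq 3' kit as 50-base single reads, per the labels' protocols. The series' design text speaks of the liver, while its title, sources and protocol give IWAT. The authors deposited raw counts per gene on GRCm38 (R 3.4.3 and DESeq2 1.18.1 are named, per the submitters' processing notes). Which aligner and counter were run, and with which strand setting, is not stated in the sources used here, so overlapping or near-identical genes may share reads. The deposited table lists 16821 genes, none with under 72 reads in all, of which 16771 had a GENCODE M21 symbol.

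Of these genes, 15176 passed edgeR's filterByExpr. Counts of all 24 libraries were fitted with edgeR 4.0.16 (R 4.3.3; TMM scaling, robust quasi-likelihood fit, 1 mean per diet, two-sided, Benjamini-Hochberg over all 15176 genes, threshold 0.05). All 4 diets share 1 estimate of spread. CPM values use TMM-scaled totals, and list levels are mean log2 CPM with a prior count of 2. The 95% intervals are of single genes and not adjusted. Lymph node presence was set at the widest gap in the mean B cell marker level (4.04 log2 CPM). Alternatives used DESeq2 1.42.0, limma voom 3.58.1, other scalings and filters, and libraries left out. The code was tested on simulated data.

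The comparison, the gene lists and the tests were chosen with earlier results of these data known. Named genes were drawn from 19 fixed names and the 2 genes with the smallest p of each list where none was called. Others were chosen after their values were seen: the genes with the smallest p of all, genes whose libraries do not overlap, and examples called in both parts. Not every gene drawn in this way is printed. Labels were not paired between diets.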

Additional observations from a re-analysis of the deposited data

Results flagged for a closer look

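In 17 of 190 groups of 6 libraries (94 genes and the mitochondrial share, in 2 diets), 1 library stood apart from the other 5 by a gap too large for Dixon's 95% limit. Genes were taken on the log2 scale and the mitochondrial share in percent. Chance flags about 1 in 20 groups, and genes that vary together are not independent.

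Oxidized casein MR 6 stood below the other 5 libraries of its diet for 4 genes raised by methionine restriction on average. Its Ucp1 was 99.4 CPM against 649 to 1791 CPM in the others, its Slc25a34 6.504 against 20.02 to 32.11 CPM, its Gk 14.6 against 40.6 to 73.8 CPM, and its Lgr6 (a receptor of R-spondins) 0.93 against 7.54 to 22.6 CPM. The same library stood above the others for Mat2a, at 384 against 195 to 238 CPM, and for Gpat4, at 257 against 191 to 198 CPM.

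Oxidized casein MR 1 stood above the others for Insig1 (176 against 90.2 to 108 CPM), Idh3a (554 against 322 to 393 CPM) and Ank, a pyrophosphate exporter (80.0 against 44.7 to 54.2 CPM). Fdft1 was low in oxidized casein MR 5 (8.19 against 11.4 to 13.7 CPM), and Ptprk, a receptor phosphatase, was low in oxidized casein MR 2 (4.14 against 5.75 to 6.23 CPM).

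In elemental control, Mthfd1 was high in library 6 (20.3 against 13.8 to 15.5 CPM), and C1qa (130.4 against 74.8 to 87.5 CPM) and Mul1, a mitochondrial ubiquitin ligase (24.4 against 19.8 to 21.4 CPM), were high in library 5. Igfbp7 was low in library 3 (339.0 against 390 to 423 CPM), Ugp2, of glycogen synthesis, in library 4 (63.1 against 99.5 to 111 CPM), and Nup93 in library 1 (14.7 against 18.3 to 19.9 CPM).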

How the results depend on the processing

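Of 36 alternative settings, 17 called no gene between oxidized casein MR and elemental control. The count was 2 with median-of-ratios size factors, 2 with upper quartile scaling, 2 with no filter on low counts, 2 with limma voom, 47 with DESeq2 (38 higher, 9 lower), 47 with the lymph node term (9 higher, 38 lower) and 2 within libraries without lymph node transcripts (both lower, Serpine2 and Wfdc17). It was 0 within libraries with lymph node transcripts. Leaving out 1 library gave 0 to 10 calls, with 10 (8 higher, 2 lower) without elemental control 1 and 3 without casein control 5. The cause of these differences was not tested. Non-overlapping genes numbered 76 with median-of-ratios factors (44 higher, 32 lower).

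The methionine count was 862 to 1301 without 1 library and 1941 with the lymph node term (1057 higher, 884 lower). The protein source count rested on single libraries, from 67 without oxidized casein MR 2 to 517 without oxidized casein MR 1. It was 195 with no filter, 629 with DESeq2 (141 higher, 488 lower), 569 with the lymph node term (131 higher, 438 lower) and 656 without the muscle-rich libraries elemental control 2 and elemental MR 2 (293 higher, 363 lower). Genes opposite in both parts numbered 48 to 275 without 1 library (48 without oxidized casein MR 2, 275 without oxidized casein MR 1), 126 with no filter and 377 with DESeq2. Between elemental MR and casein control the count was 1187 to 1774 without 1 library and 2651 with the lymph node term. The alternatives without elemental control 2 and 6, and those for the last 2 counts, were chosen after seeing the data.

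Over 94 genes the sign turned in 27 of 3374 values, none of them called: 10 without 1 library and 17 others. With the lymph node term Adipoq was -0.018, Scd1 -0.023 and Asns -0.066. Within libraries with lymph node transcripts Scd1 was -0.19, Asns -0.308, Msra -0.119, Nusap1 0.043 and mt-Nd1 -0.010, and within those without, Adipoq was -0.040, Acaca 0.17, Txnrd1 0.007 and Fabp5 0.070. Without the muscle-rich libraries Cidea was -0.032 and Psat1 0.078, and without elemental control 2 and 6 Cidea was -0.118, Psat1 0.053 and Rassf3 -0.053. Without 1 library, Cidea ranged from -0.032 to 0.598, Scd1 from -0.006 to 0.19, Acaca from -0.198 to 0.046, Psat1 from -0.183 to 0.102, Msra from -0.036 to 0.12 and Rassf3 from -0.034 to 0.133.

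No paired analysis was possible because the labels give mouse numbers, which no 2 diets share. The limits are 6 mice per diet, unequal lymph node, muscle and liver reads, and 2 dietary changes made at once. Errors were wide for Dhrs9 (SE 0.51) and Lgr6 (SE 0.67), which have few reads, and also for the abundant Ucp1 (SE 0.83). Snai2, with few reads as well, had an SE of 0.15.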

Other observations

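Vnn3, a pantetheinase family member, averaged 31.6 ± 9.29 CPM in oxidized casein MR and 17.4 ± 2.09 CPM in elemental control, without overlap (log2 difference 0.86, adjusted p = 0.233, edgeR). Zim1, an imprinted zinc finger gene, averaged 6.93 ± 2.64 against 2.39 ± 1.30 CPM, also without overlap (1.52, adjusted p = 0.361). For both genes neither of the other 2 diets exceeded the mean of oxidized casein MR: elemental MR averaged 21.5 and 3.20 CPM and casein control 17.4 and 3.71 CPM for Vnn3 and Zim1. Sema5a, a semaphorin, was among the 40 genes with a higher protein source part (0.78, adjusted p = 0.00118), with 49.2 ± 8.96 CPM in casein control, 39.0 ± 8.61 in oxidized casein MR, 29.1 ± 4.59 in elemental control and 22.4 ± 2.54 in elemental MR. All these genes were chosen after their values were seen.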
